A study of Mus musculus with 10 samples.

Results

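The genes described here are 6 proteases (Ctss, Ctsb, Ctsd, Ctsl, Ctsz and Lgmn) and 1 thiol reductase (Ifi30) of the endosome and lysosome that prepare antigen for MHC class II. They were chosen by name, not by their values, and all 7 were found among the 32285 genes of the count matrices. Their UMIs (unique molecular identifiers, each a counted transcript) were summed over 3 classes of single cells from SW1 tumors, a mouse melanoma grown under the skin of the right flank of female C3H/HeJ mice aged 4 to 6 weeks. The cells had been sorted for CD45, the surface protein of leukocytes. The 5 groups were sequenced with 10x Genomics chemistry, each as 1 library of cells pooled from several mice: a pretreatment group at day 0, and control and L-fuc groups at both day 7 and day 21. The pretreatment mice were taken 10 days after injection by the labels, while the study's methods give another length of growth, before L-fucose (L-fuc), a fucose sugar, was given to the L-fuc groups in drinking water. The control groups drank plain water, and the groups differed in no other agent that the labels name. T cell receptor libraries of the same groups were not used here. The labels state the L-fuc dose as 100 mM in one protocol and 100 nM in another, and 5 or 6 mice in an arm (3 at day 0), and no cell is tied to a mouse. With 1 library in a group there was no replicate check and no test between conditions, so ratios between libraries carry intervals for counting error only.

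Cathepsins are made as inactive precursors and become active in acid endosomes, where they cut ingested and self proteins into peptides. Cathepsin S (Ctss) is a cysteine protease that removes the last part of the invariant chain (Cd74) from class II molecules in macrophages, dendritic cells and B cells, and cathepsin L (Ctsl) does this step in thymic epithelium. Cathepsin B (Ctsb) and cathepsin Z (Ctsz) are cysteine proteases that can trim the carboxyl end of a chain, cathepsin D (Ctsd) is an aspartic protease, legumain (Lgmn) cuts after asparagine and helps to mature other cathepsins, and GILT (Ifi30) is an interferon-inducible thiol reductase that opens disulfide bonds so that proteases can reach the chain. Many lysosomal genes carry a CLEAR element, an E-box bound by TFEB and its relatives.

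The 7 genes lie on 7 mouse chromosomes (GRCm38, the mm10 build of the files, with gene bounds from GENCODE). Ctss is at chr3:95526786-95556403 on the plus strand and Ctsb at chr14:63122462-63145923 on the plus strand. The minus strand carries Ctsd at chr7:142375911-142388038, Ctsl at chr13:64359337-64370890, Ctsz at chr2:174427493-174439039, Lgmn at chr12:102394084-102439813 and Ifi30 at chr8:70762774-70766663. No promoter sequence was used for Ctsb. The 250 bases before the RefSeq start (GRCm38.p6) were searched for the E-box CACGTG, which reads the same on both strands. It was found in the windows of Ctsd (2 matches), Ifi30, Ctsl and 1 of 2 windows of Lgmn, and not in those of Ctss and Ctsz, while 6.02% of 32841 such windows of all genes held it. The longer form TCACGTGA, which contains the E-box, was in the windows of Ctsd and Ifi30 and in 0.786% of all windows. The Ctsd match 245 bases before the start lies at the window edge and is not printed as a stretch. Stretches of 30 bases around the other 4 E-box matches are shown because they mark which members share the E-box. The E-box is in capitals, all are on the minus strand 5′ to 3′, and they lie at chr7:142387908-142387937, chr8:70766842-70766871, chr12:102439124-102439153 and chr13:64370739-64370768. By the GENCODE bounds above, the stretches of Ctsd, Lgmn and Ctsl lie inside their genes, and that of Ifi30 lies before its gene. The other Lgmn window, at the outer bound of the gene (chr12:102439729-102439978), held no E-box. GENCODE also places the Ctsd stretch in exon 1 of a longer transcript, and 15 bases of the Ctsl stretch in exon 1 of another. A match is a description of the letters and not a binding site.
Ctsd: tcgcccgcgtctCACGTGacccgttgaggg
Ifi30: atccaaaaacttCACGTGaccagacatgct
Lgmn: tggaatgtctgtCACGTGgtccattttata
Ctsl: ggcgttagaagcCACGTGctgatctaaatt

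The window of Ctss, the member with the largest mean ratio between macrophages and tumor cells, is printed whole (chr3:95526536-95526785, plus strand, ending at the base before the start). Its capitals mark the match to the core of an interferon-stimulated element (GAAA, any 2 bases, GAAA), searched on both strands and present in 2.98% of all windows. None of the other windows searched held it.
Ctss: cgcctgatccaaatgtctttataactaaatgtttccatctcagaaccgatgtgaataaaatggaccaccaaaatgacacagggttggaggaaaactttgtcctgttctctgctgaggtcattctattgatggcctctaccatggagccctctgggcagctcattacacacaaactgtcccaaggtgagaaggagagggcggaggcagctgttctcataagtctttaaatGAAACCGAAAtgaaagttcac

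Barcodes with at least 500 genes and at most 10% mitochondrial UMIs were kept, 31156 of 41936 in all and between 1182 and 17897 in a library. Macrophages were barcodes with at least 10 UMIs of C1qa, C1qb and C1qc together (5498 barcodes, 411 to 2071 in a library). Other leukocytes were the remaining barcodes with a Ptprc (CD45) UMI (7292, 202 to 3725), and tumor cells had a Sox10 UMI and no Ptprc UMI (12736, 263 to 8822). Median UMIs in a macrophage ran from 5737 to 7888 over the libraries. The macrophage markers (Csf1r, Adgre1, Cd68, Ms4a7, Fcgr1, Lyz2, Tyrobp and Apoe) summed to between 7387 and 14970 UMIs per 1000000 (CPM) in macrophages, 1003 to 1853 in other leukocytes and 152 to 445 in tumor cells. Tumor cells carried the neural crest gene Erbb3 (105 to 153 CPM), whereas the pigment genes Pmel (at most 1.03 CPM) and Tyr (0 UMIs in each library) were at or near 0. A Sox10 UMI was also seen in 31.1% of macrophages and 44.6% of other leukocytes of control day 7, in 13.9% and 18.8% of L-fuc day 7, and in 0.583% to 9.98% of both classes in the other 3 libraries. In other leukocytes the leukocyte markers (Coro1a, Cd52 and Laptm5) summed to 934 CPM in control day 7 and to 2999 to 4474 CPM in the other libraries. Sox10 in that class of control day 7 was at 265 CPM, against 402 CPM in tumor cells. The part of tumor cells or their RNA in the class was not tested. Values of the members that involve control day 7 are given also for leukocytes without a Sox10 UMI where a call differs, and for some stated limits. Percents of the macrophage level are given for all barcodes only. The same barcode sequence occurred in both day 7 libraries 433 times and in any other pair 3 to 86 times.

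All 7 genes were higher in macrophages than in other leukocytes in 5 of 5 libraries. Each was at least 1.5-fold higher in every library, a pattern that 8.87% of 2750 genes tested showed. The mean ratio over the libraries was 9.58-fold for Ctss (log2 3.26 ± 0.32, SD, n = 5) and 9.66-fold for Lgmn (log2 3.27 ± 0.13). It was 6.04-fold for Ctsb (log2 2.59 ± 0.20) and 5.17-fold for Ctsz (log2 2.37 ± 0.20). With all barcodes, Lgmn was at least 8.44-fold higher in each library and Ctss at least 7.13-fold. Without Sox10 barcodes all 7 were still past 1.5-fold in every library, and in control day 7 Lgmn was then 7.11-fold and Ctss 6.59-fold higher, the lowest of the 5 libraries for both.
The ratios of the other 3 spread more between libraries. Ctsd was 3.78-fold higher on average, from 1.94-fold in L-fuc day 7 to 6.81-fold in L-fuc day 21. Ifi30 was 3.08-fold higher, from 1.51-fold at day 0 to 5.36-fold in control day 7. Without Sox10 barcodes it was 4.24-fold in control day 7, and the highest was 4.45-fold in L-fuc day 7. Ctsl was 2.75-fold higher, from 1.86- to 4.25-fold, and without Sox10 barcodes from 2.10-fold in control day 7 to 4.61-fold in L-fuc day 21. Of the lists of related genes, all 6 class II genes, 13 of 23 lysosomal membrane, pump and hydrolase genes, 3 of 7 other lysosomal peptidases, 2 of 3 protease inhibitors and 0 of 1 sorting gene met the same rule. For each of the 7 the exact sign-flip permutation test over libraries (two-sided) gave p = 0.0625, the smallest that 5 libraries allow.

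**Figure D1:**
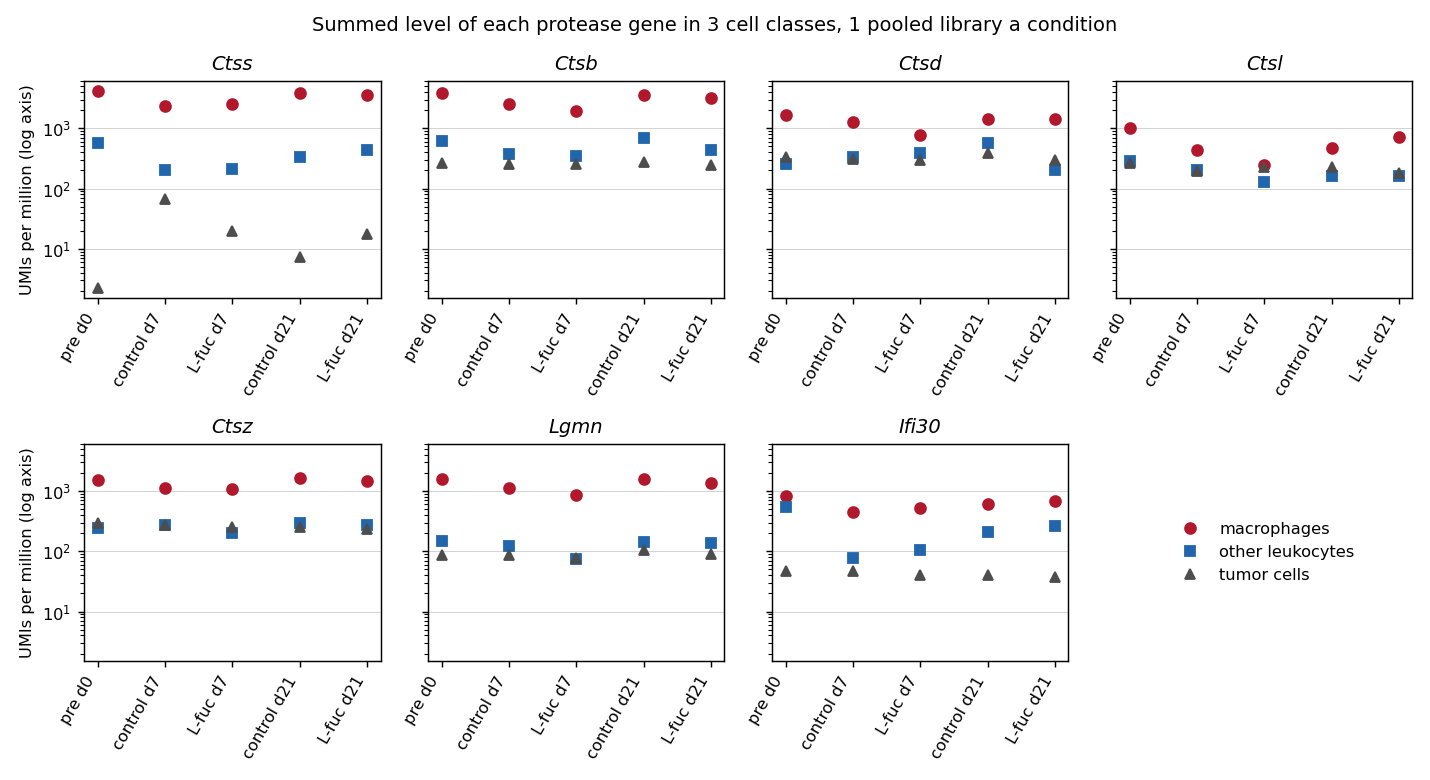
Summed level of each gene (CPM, log axis) in macrophages, other leukocytes and tumor cells, with 1 point a class for each of the 5 libraries. Macrophage points lie highest in each panel, Ctss in tumor cells spans 2.2 to 67.03 CPM, and Ctsl in L-fuc day 7 is the case where macrophages (246 CPM) and tumor cells (225 CPM) come closest.

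Against tumor cells, 6 of 7 genes were at least 1.5-fold higher in macrophages of every library, which 14.4% of 2935 genes tested were. The Ctss ratio was at least 30.2-fold in every library and spread widely (mean log2 6.91 ± 1.35, SD, n = 5), with 10 to 4747 Ctss UMIs in the tumor cells of a library. Its lowest value, in control day 7, was 37.7-fold without Sox10 barcodes among macrophages. The mean ratio was 12.9-fold for Lgmn, 11.8-fold for Ifi30 and 10.9-fold for Ctsb. It was 5.07-fold for Ctsz (log2 2.34 ± 0.30, SD, n = 5) and 3.81-fold for Ctsd (log2 1.93 ± 0.40). Ctsl did not meet the rule. Its ratio ran from 1.09-fold in L-fuc day 7 to 3.81-fold in L-fuc day 21 (mean log2 1.22 ± 0.74), above 1 in 5 of 5 libraries. Of the lists, 4 of 6 class II genes, 14 of 24 lysosomal genes, 3 of 5 other peptidases, 2 of 3 inhibitors and 1 of 1 sorting gene met it. The exact permutation p was again 0.0625 for all 7 genes.

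In tumor cells the level of Ctss was 2.2 CPM at day 0. It was 67.03 in control day 7 and 19.5 with L-fuc, then 7.42 in control day 21 and 17.9 with L-fuc. Expressed as a percent of the macrophage level these were 0.0526%, 2.89%, 0.778%, 0.191% and 0.501%. The same percent was taken for 10 macrophage and leukocyte markers, and its median was 0.0706%, 2.47%, 1.06%, 0.189% and 0.499% in the same order. Ctss lay within the range of those markers in each library, and the part of free macrophage RNA in its tumor cell level was not tested. Apoe, a macrophage marker set apart from these 10 after its values were seen, was at 146 to 371 CPM in tumor cells, or 2.56% to 8.61% of its macrophage level.
The other 6 genes lay above the range of the 10 markers in every library, though in L-fuc day 7 Apoe (8.61%) was above Ifi30 (7.52%). In tumor cells Ctsl was at 266, 195, 225, 227 and 184 CPM (libraries in the order above), which is 25.2% to 91.4% of the macrophage level. Ctsd was at 337, 309, 303, 390 and 296 CPM, 19.9% to 39.6% of the macrophage level. Ctsz was at 290, 272, 255, 253 and 236 CPM, 15.2% to 23.8%.
For the remaining genes the tumor cell level was a smaller part of the macrophage level. Ctsb (249 to 277 CPM) reached 6.99% to 12.7%, Lgmn (77.1 to 106 CPM) 5.33% to 8.98% and Ifi30 (37.9 to 47.8 CPM) 5.61% to 10.6%. In tumor cells with no C1q UMI at all the levels of these 6 genes stayed close, with Ctsl at 174 to 260 CPM, Ctsb at 235 to 279 CPM and Ifi30 at 34.2 to 47.5 CPM. Ctss was then at 1.87, 56.4, 10.9, 5.73 and 6.93 CPM (libraries in the order above).

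**Figure D2:**
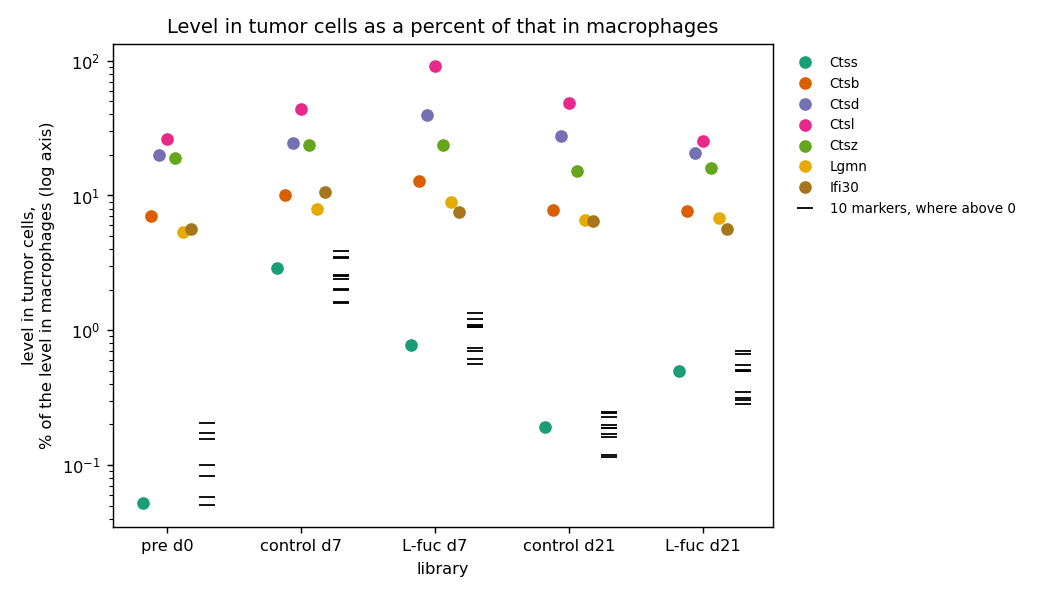
Level of each gene in tumor cells as a percent of its level in macrophages of the same library (log axis), with dashes for 10 macrophage and leukocyte markers (Apoe not drawn). Ctss (0.0526% to 2.89%) moves among the markers, and the other 6 genes lie above them in every library, Ctsl highest at 91.4% in L-fuc day 7.

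Across conditions no member with enough UMIs to be tested in tumor cells was past 1.5-fold. Of the 7 genes, 5 had enough (a mean of 50 CPM and 20 UMIs in both libraries together). In each of the 4 comparisons 0 of 5 were past 1.5-fold. Ctss and Ifi30 were under 50 CPM and not called. The low Ctss levels given above were further apart. Their ratio of L-fuc over control was 0.291 at day 7 and 2.41 at day 21. For control day 7 over day 0 it was 30.5, and for control day 21 over control day 7 it was 0.111. The share of all genes past 1.5-fold for L-fuc against control was 1.37% higher and 0.335% lower at day 7. At day 21 it was 0.836% higher and 0.776% lower. It was 5.84% higher and 4.04% lower for control day 7 against day 0, and 6.69% higher and 1.41% lower for control day 21 against control day 7.
The class II genes of the same tumor cells stood apart from this at day 7. All 6 that were tested (H2-Aa, H2-Ab1, H2-Eb1, H2-DMa, H2-DMb1 and Cd74) were past 1.5-fold higher with L-fuc, with a median log2 ratio of 1.13, against -0.04 for the 5 protease genes and -0.02 over all 2986 genes tested. H2-Aa, the alpha chain of I-A, was at 1503 CPM with L-fuc and 658 CPM in control, while Ctsb was at 252 and 259 CPM (ratio 0.971, 95% counting interval 0.948 to 0.995). At day 21 0 of 6 class II genes were past 1.5-fold with L-fuc (H2-Aa 1307 CPM, 1366 in control). From control day 7 to control day 21 all 6 were past it higher, and the control day 7 library is shared with the L-fuc comparison of that day. The list was picked with earlier results of these data known and is no independent support of a direction.

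Among other leukocytes, barcodes were sorted into 10 gates by lineage genes, and levels were taken where a library held at least 20 barcodes of a gate. The gates of type 1 conventional dendritic cells (cDC1, 25 barcodes) and of Cd209a dendritic cells (7 barcodes) reached this in 0 libraries. No level is given for these dendritic cells. Of the 7292 barcodes 3601 fell in no gate and 960 in more than 1. At day 0 the 44 barcodes in no gate had Ctss at 1969 CPM and Ctsl at 1678 CPM, the latter above the 1013 CPM of macrophages, with C1q genes at 189 CPM. In control day 7 the 2602 such barcodes had Ctss at 178 CPM and Ctsl at 197 CPM, with Cd63 at 1541 CPM. Monocytes (Ly6c2 and Plac8) had Ctss at 1874 CPM at day 0 (95% Poisson interval 1687 to 2075), 970 in control day 7 and 1265 in L-fuc day 7. Their Ctsb was at 3086, 1313 and 1205 CPM, and their Ctsl at 1095 CPM at day 0 (953 to 1251), 403 in control day 7 and 325 in L-fuc day 7. In monocytes of day 0 the Ctsl interval overlapped the macrophage level of that library (1013 CPM). It covers counting error in 24 barcodes and not the spread between cells. With each barcode counted equally that macrophage level was 701 CPM, and no such mean was taken for monocytes. Monocyte Cd63 was at 209 CPM at day 0, 724 in control day 7 and 516 in L-fuc day 7.
Other lineages were high for single members. B cells of day 0 (74 barcodes) had Ifi30 at 1423 CPM (1294 to 1561), above the 840 CPM of macrophages in that library, with Ctsd at 32.0 CPM (15.3 to 58.8) and Ctsb at 128 CPM. The neutrophil gate of L-fuc day 7 (27 barcodes) had Ctsd at 1489 CPM (1217 to 1804), against 765 CPM in macrophages of that library, and Ctsz at 1059 CPM (832 to 1330) against 1077 CPM. Its Ctsl rested on 3 UMIs and its Ifi30 on 2, and its Cd63 was at 558 CPM.
Ctsl and Lgmn were below the macrophage level of the same library in each lymphocyte gate that had a level. T cells had Ctsl at 14.4 to 147 CPM and Lgmn at 14.4 to 107 CPM over 4 libraries, with the highest values in control day 7, where Cd63, a gene at 1168 to 1720 CPM in tumor cells, was at 685 CPM in the T cell gate against 12.01 to 189 CPM in the other 3. B cells of day 0 had Ctsl at 99.1 and Lgmn at 115 CPM, above the 57.3 and 33.3 CPM of T cells in that library. Natural killer cells had Ctsl at 160 and Lgmn at 109 CPM in control day 7, and 43.6 and 42.2 CPM in L-fuc day 7. Their Ctsd was at 483 CPM in control day 7 and 586 in L-fuc day 7, with Cd63 at 968 and 314 CPM. The part of tumor cell RNA in these values was not tested. The plasmacytoid dendritic cell gate of control day 7 (30 barcodes) had Ctsb at 658.5 CPM (516 to 828) and Ctsl at 352 CPM (250.2 to 481), against 442 CPM of Ctsl in macrophages of that library, with Cd63 at 1001 CPM. The part of other cells' RNA in these levels was not tested. Mast cells and basophils of L-fuc day 7 (43 barcodes) had Ctsd at 849 CPM (724 to 988). Their Cd63 was at 2694 CPM, above the tumor cell range, and its source was not tested. The gate set for mature dendritic cells (121 and 74 barcodes at day 7) had Cd63 at 1716 and 1441 CPM, in the tumor cell range, and is not named as that cell type. It was set aside after its values were seen, so Ctss in mature dendritic cells is not described. In the gate Ctss was at 50.1 and 22.6 CPM and Ctsb at 252 and 256 CPM.

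**Figure D3:**
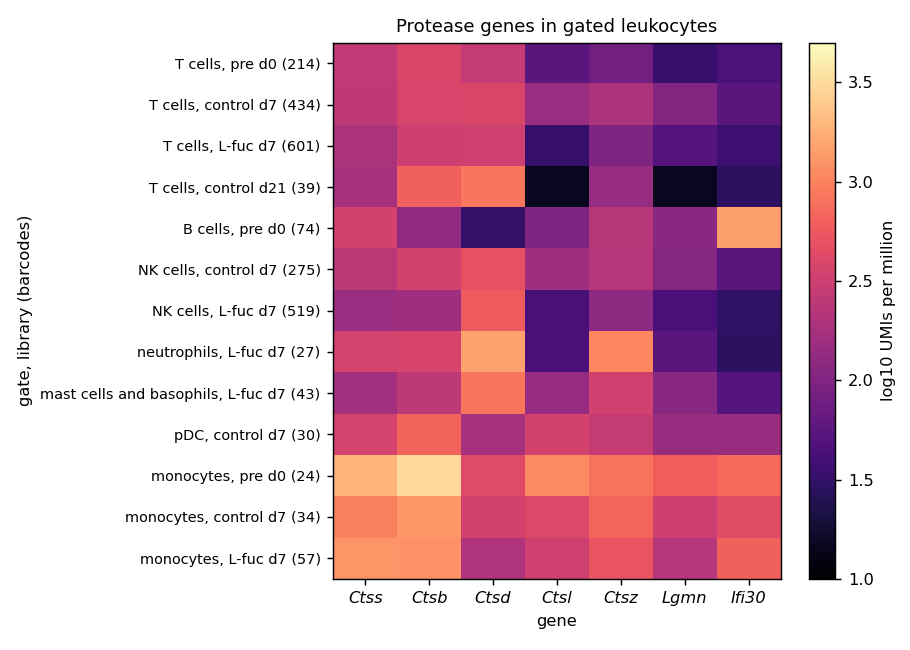
Level of each gene (log10 CPM, color) in gated leukocytes, with the library and the number of barcodes beside each row. The gate set for mature dendritic cells is not drawn. The monocyte rows are bright for Ctss and Ctsb, the B cell row for Ifi30 (1423 CPM), and the neutrophil row for Ctsd (1489 CPM) and Ctsz (1059 CPM).

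The pairs at day 7 and day 21 ask how the immune cells of a tumor differ when the mice drink L-fuc. In macrophages at day 7, Ctsl and Ctsd were lower with L-fuc and the other 5 genes were within 1.5-fold. That is 2 of 7 lower and 0 of 7 higher, beside 4.03% of 2632 genes lower and 2.43% higher, with a median log2 ratio of -0.37 for the 7 and -0.04 over all genes. Ctsl was at 442 CPM in control and 246 CPM with L-fuc (ratio 0.556, 95% counting interval 0.535 to 0.578). Ctsd was at 1255 and 765 CPM (0.610, 0.596 to 0.623).
The endopeptidase legumain and cathepsin B were lower by less. Ctsb was at 2551 and 1976 CPM (0.775, 0.764 to 0.786) and Lgmn at 1115 and 858 CPM (0.769, 0.752 to 0.787). Ctsz was at 1145 and 1077 CPM (0.940, 0.921 to 0.960). The remaining members had ratios above 1 and within 1.5-fold, with Ctss at 2318 and 2508 CPM (1.08, 1.07 to 1.10) and Ifi30 at 453 and 528 CPM (1.16, 1.13 to 1.20).
Without the macrophages that held a Sox10 UMI (1221 of control and 1783 of L-fuc remained), Ctsl was at 470 and 239 CPM and Ctsd at 1506 and 822 CPM, so both differences were larger. Ctss was then at 2894 and 2879 CPM, without the small excess seen in all macrophages. Per macrophage the median of Ctsl was 2.33 UMIs per 10000 in control and 0.66 with L-fuc, at median depths of 6285 and 5757 UMIs. A Ctsl UMI was seen in 69.2% of control and 52.7% of L-fuc macrophages, so the L-fuc median lies near the floor and its size is not a fold. With each barcode counted equally Ctsl was at 400.5 and 215 CPM. Ctsl was past 1.5-fold lower in 15 of 15 other ways of computing the ratio and Ctsd in 13 of 15, missing it with TMM scaling and with macrophages set at 5 C1q UMIs. The alternative without C1q UMIs is among the 15 but leaves the macrophage class as it is, so it could not alter these ratios. Other measures moved with the libraries. The summed macrophage markers were 11010 CPM in control and 7387 with L-fuc, but they did not move as a set. Apoe (6073 and 2945 CPM), Lyz2 (1780 and 1160), Cd68 (667 and 510), Adgre1 (136 and 115) and Csf1r (180 and 172) were lower with L-fuc. Tyrobp (1571 and 1847 CPM), Ms4a7 (500.5 and 522.9) and Fcgr1 (103 and 116) were higher. Hemoglobin genes summed to 692 and 3849 CPM. The part of these measures in the result was not tested.

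**Figure D4:**
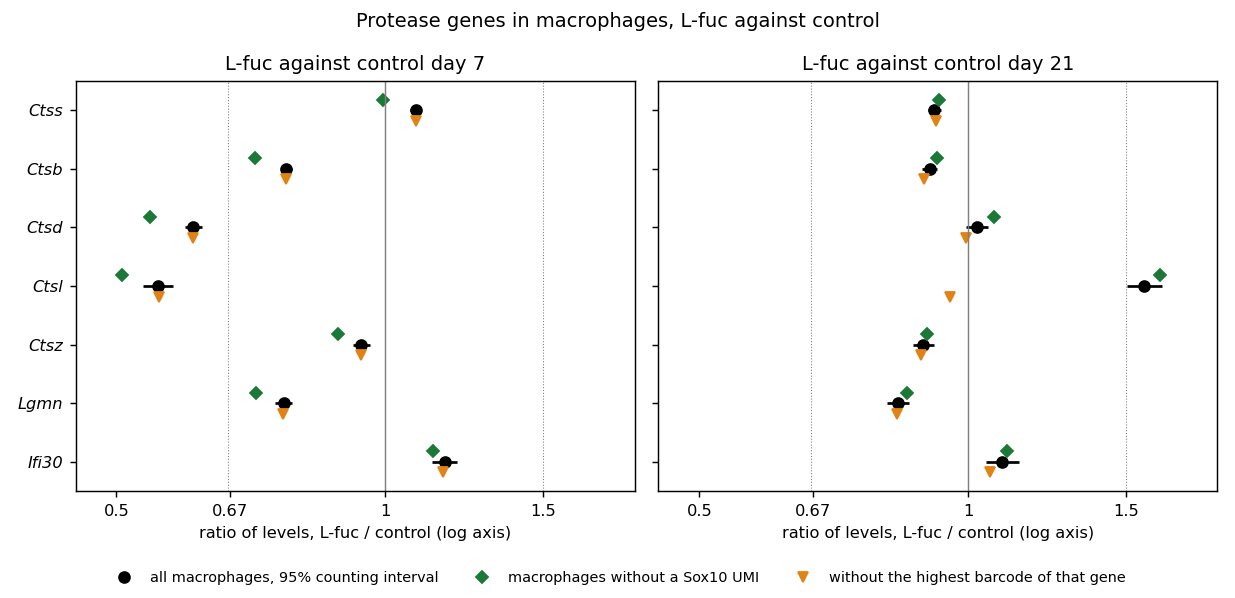
Ratio of levels in macrophages, L-fuc over control (log axis, dotted lines at 1.5-fold), for all macrophages with the 95% counting interval, for those without a Sox10 UMI, and for all but the barcode with most UMIs of that gene. At day 7 Ctsl and Ctsd lie below the lower line by each measure, and at day 21 Ctsl lies at 1.57 with all barcodes and just below 1 without 1 barcode.

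At day 21 the 7 genes of macrophages were close between L-fuc and control except for Ctsl. Ctsl was at 464 CPM in control and 731 CPM with L-fuc (ratio 1.57, 1.51 to 1.64), so 1 of 7 was higher and 0 lower, beside 3.06% of 2550 genes higher and 1.10% lower. This value rested on a single barcode of the 411. It held 1897 of the 4526 Ctsl UMIs of the L-fuc macrophages (41.9%), where the next barcode held 138, and had 109713 UMIs in all. Without it Ctsl was at 432 CPM, and with each library's highest barcode left out the log2 ratio was -0.07. The median macrophage had 2.53 Ctsl UMIs per 10000 in control and 2.07 with L-fuc.
The same barcode held 560 of the 564 UMIs of Ctsk (cathepsin K, the collagen-degrading cathepsin of osteoclasts) in these macrophages, 65 of Atp6v0d2 and 25 of Acp5, both also osteoclast genes, and none of Dcstamp, Ocstamp, Mmp9 or Calcr. It had 20 Ptprc UMIs, 400 of C1qa and no Sox10 UMI. It also carried 844 Ctsb and 559 Ctsd UMIs, 4.23% and 6.28% of those genes in the class. Elsewhere in macrophages Ctsk was low, with 34 UMIs at day 0, 24 in control day 7, 47 in L-fuc day 7 and 0 in control day 21.
The other 6 genes did not pass 1.5-fold at day 21. Ctss was at 3890 CPM in control and 3563 with L-fuc (0.916, 0.900 to 0.932), Ctsb at 3559 and 3221 (0.905), Ctsd at 1405 and 1438 (1.02, 0.995 to 1.05) and Ctsz at 1667 and 1484 (0.890). Lgmn was at 1601 and 1337 CPM (0.835, 0.812 to 0.858) and Ifi30 at 617 and 673 CPM (1.09). The Ctsd difference of day 7 was thus not seen at day 21, though the difference between the days was not tested.

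Over time in the control groups the 7 genes of macrophages were lowest at day 7 when all macrophages were summed. Without Sox10 barcodes Ctsd was at 1506 CPM in control day 7 and 1421 in control day 21, and with each barcode counted equally Ctsl was at 400.5 and 389.5 CPM, so this order did not hold for them. Both comparisons share the control day 7 library, which is also the control of the L-fuc comparison at day 7. From day 0 to control day 7, 4 of 7 were lower and 0 higher, beside 8.87% of 2504 genes lower and 13.3% higher. Ctsl went from 1013 to 442 CPM (ratio 0.436, 0.421 to 0.453), Ifi30 from 840 to 453 (0.539), Ctss from 4183 to 2318 (0.554) and Ctsb from 3839 to 2551 (0.664).
From control day 7 to control day 21, 1 of 7 was higher and 0 lower, beside 12.7% of 2632 genes higher and 9.65% lower. This was Ctss, from 2318 to 3890 CPM (1.68, 1.65 to 1.70), with Ctsz (1145 to 1667, 1.46) and Lgmn (1115 to 1601, 1.44) next. Ctsl was at 442 and 464 CPM. The lists of related genes had medians of the same sign as the 7 genes in both comparisons. At day 7 against day 0, 4 of 6 other peptidases, 1 of 3 inhibitors, 0 of 1 sorting gene, 6 of 27 lysosomal and 5 of 6 class II genes were past 1.5-fold lower and 0 higher. At day 21 against day 7, 3 of 5, 0 of 3, 0 of 1, 5 of 28 and 5 of 6 were past it higher and 0 lower. Without Sox10 barcodes these were 1 of 7, 1 of 3, 0 of 1, 2 of 28 and 4 of 6 lower (with 1 other peptidase higher), then 1 of 5, 0 of 3, 0 of 1, 0 of 29 and 1 of 6 higher.
Both counts depended on the macrophages of control day 7 that carried a Sox10 UMI. Without them Ctss was at 2894 and Ctsb at 3061 CPM there. Then 2 of 7 genes (Ctsl and Ifi30) were past 1.5-fold lower against day 0, beside 5.46% of 2438 genes lower and 10.0% higher. At day 21 against control day 7, 0 of 7 were past 1.5-fold, beside 7.88% of 2512 genes higher and 4.58% lower. Scaling by TMM or by median of ratios, which move the median of all genes by -0.33 from day 0 to day 7 and by 0.18 from day 7 to day 21, gave 7 of 7 lower and 5 of 7 higher instead. The share of all genes past 1.5-fold was not taken under these scalings.

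The other leukocytes are a mix of lineages, in which fewer cells of a type and less RNA per cell cannot be told apart. In control day 7, 44.6% of them held a Sox10 UMI, and their leukocyte markers were the lowest of the libraries. At day 7, Ctsl (202 CPM in control, 127 with L-fuc, ratio 0.631, 0.598 to 0.666) and Lgmn (123 and 74.6 CPM, 0.605, 0.564 to 0.648) were lower, 2 of 7, and 0 of 7 were higher, beside 12.8% of 3013 genes lower and 10.2% higher. Ctsd was at 336 and 390 CPM and Ifi30 at 76.5 and 104 CPM. Without barcodes with a Sox10 UMI, Ctsl was at 218 and 83.2 CPM and Lgmn at 181 and 71.2 CPM. Ctss (ratio 0.676), Ctsb (0.666) and Ctsz (0.661) were then also lower, just short of the call, while Ctsd (1.07) and Ifi30 (1.08) were not. The median log2 ratio of the 7 was then -0.57, beside -0.01 over all genes, and it was -0.12 with all barcodes. With all barcodes, TMM scaling, which moved the median of all genes by 0.12, left 0 of 7 past 1.5-fold.
At day 21, Ctsd (561 CPM in control, 203 with L-fuc, ratio 0.361, 0.317 to 0.410) and Ctsb (697 and 444 CPM, 0.637, 0.578 to 0.701) were lower, 2 of 7, and 0 of 7 were higher, beside 17.1% of 2738 genes lower and 4.27% higher. These libraries had 204 and 202 such barcodes. The lower Ctsd was seen in 15 of 15 other ways of computing it. Among these, requiring macrophages to have Ptprc and no Sox10 leaves this class as it is, so it could not alter the ratio. Ctsb turned to a log2 ratio of 0.12 when each barcode counted equally and of 0.10 without barcodes with a C1q UMI. Scaling by median of ratios, which moved the median of all genes by 0.29, gave 2 of 7 higher and 1 of 7 lower. Ctsl was at 165 and 164 CPM, but single barcodes held 39.8% and 50% of its UMIs, and without them it was at 99.8 and 83.2 CPM.
From day 0 to control day 7, 3 of 7 were lower and 0 higher, beside 19.6% of 2875 genes lower and 27.6% higher. Ifi30 went from 552 to 76.5 CPM, 7.22-fold lower (6.74 to 7.73), Ctss from 578 to 203 and Ctsb from 623 to 378 CPM. Without Sox10 barcodes 1 of 7 was lower and 1 higher, beside 17.2% of 2850 genes lower and 23.1% higher. Ifi30 was then 560 and 120.0 CPM, 4.67-fold lower (4.28 to 5.09), and Ctsd 256 and 396 CPM (ratio 1.55, 1.43 to 1.67), while Ctss (591 and 430 CPM) and Ctsb (632 and 582 CPM) were within 1.5-fold. The B cell gate, where Ifi30 was high, held 74 barcodes at day 0 and 10 in control day 7. At day 0 it held 445 of the 1918 Ifi30 UMIs of other leukocytes, from 312776 UMIs of all genes. The 133 barcodes in more than 1 gate had Ifi30 at 591 CPM over 1484673 UMIs of all genes, and so held more of it. In control day 7 the 191 such barcodes had Ifi30 at 209 CPM. The part of either group in the difference was not tested.
From control day 7 to control day 21, 4 of 7 were higher and 0 lower, beside 17.6% of 3095 genes higher and 23.1% lower: Ifi30 (76.5 to 210 CPM), Ctsb (378 to 697), Ctsd (336 to 561) and Ctss (203 to 337). In leukocytes without a Sox10 UMI 1 of 7 (Ifi30) was past 1.5-fold higher, beside 14.9% of 3021 genes, and Ctss and Ctsb were at 430 and 582 CPM in control day 7.

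The wider set of lysosomal genes was then compared in macrophages between L-fuc and control. Of 24 lysosomal membrane, pump and hydrolase genes tested at day 7, 0 were past 1.5-fold, with a median log2 ratio of -0.20, and of 28 at day 21, 0 with a median of -0.12. The lowest at day 7 was Cd63 (1193 CPM in control, 801 with L-fuc), a lysosomal tetraspanin that tumor cells also make, then Lgals3 (1685 and 1224 CPM), a lectin marking damaged lysosomes. Without Sox10 barcodes Cd63 was at 1067 and 678 CPM and past 1.5-fold lower, 1 of 26 (3.85%), near the 3.11% of 2511 genes lower. The highest were Atp6v0c (675 and 711 CPM), a pump subunit, and Npc2 (1304 and 1333 CPM), a cholesterol carrier. At day 21 the lowest were Cd68 (995 and 819 CPM), a macrophage lysosomal glycoprotein, and Atp6v0e (409 and 344 CPM), and the highest Hexa (386 and 455.5 CPM), a hexosaminidase subunit, and Atp6v1a (107 and 118 CPM).
Of 6 other lysosomal peptidases tested at day 7, 1 was higher and 0 lower (median -0.15). This was Ctsw, a cathepsin of cytotoxic lymphocytes (56.9 and 117 CPM, ratio 2.06), which in other leukocytes was at 85.6 and 281 CPM. Ctsa was at 639 and 517 CPM, Tpp1 at 86.0 and 69.0, and Ctsh, an aminopeptidase, at 477 and 519. At day 21, 0 of 5 passed, with Ctsh at 1087 CPM in control and 764 with L-fuc (0.704) and Ctsa at 1041 and 793 CPM lowest, and Scpep1 at 151.5 and 172 CPM and Tpp1 at 109 and 103.5 CPM highest.
The protease inhibitors did not pass 1.5-fold on either day, 0 of 3 each time. Cystatin C (Cst3), which blocks secreted and lysosomal cysteine cathepsins, was at 2967 CPM in control and 2882 with L-fuc at day 7, and at 4322 and 4050 CPM at day 21. Cystatin B (Cstb), the cytosolic inhibitor, was at 563 and 462 CPM at day 7 and 530 and 471 CPM at day 21, and Serpinb6a at 76.6 and 62.4, then 78.5 and 54.6 CPM. Of the sorting and regulation genes only M6pr, the receptor that carries lysosomal enzymes, had enough UMIs, at 194 and 192 CPM at day 7 and 247 and 228 CPM at day 21.
Class II genes lay on the other side at day 7. Of 6 tested, 1 was past 1.5-fold higher and 0 lower, with a median log2 ratio of 0.50. H2-Ab1 was at 2293 CPM in control and 3522 with L-fuc (1.54, 1.52 to 1.56; without Sox10 barcodes 2746 and 3966 CPM and within 1.5-fold), H2-Eb1 at 3663 and 5442 CPM (1.49), Cd74 at 12940 and 17410 CPM and H2-DMa at 278 and 354 CPM. At day 21 the median was -0.10 and 0 of 6 passed, with H2-DMb1 at 106 and 127 CPM and H2-Ab1 at 3895 and 3920 CPM highest, and H2-DMa at 377 and 348 CPM and H2-Eb1 at 6152 and 5696 CPM lowest.

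Within a library, the protease genes varied together across macrophages to different degrees. Pearson's r across barcodes, on the log of 1 + UMIs per 10000 and averaged over 5 libraries, was highest for Ctsb with Lgmn (0.55, 0.48 to 0.59 over libraries) and lowest for Ctsl with Ifi30 (0.09) and Ctsd with Ifi30 (0.12). Barcodes of 1 library share its depth and free RNA, so these are descriptions.
Of all 7979 genes with enough UMIs, those nearest to Ctss were C1qa (0.66), C1qc (0.60) and C1qb (0.59), which also defined the class. The nearest to Ctsb were Lgmn, Psap (0.55), the precursor of the saposins, and Ctsa (0.52). Ctsd and Ctsl were each nearest to another member (Ctsd to Ctsb at 0.49, Ctsl to Ctsb at 0.39), followed for Ctsd by Trem2 (0.43), a lipid receptor, and Cd68 (0.39), and for Ctsl by Ctsd (0.34) and Cd68 (0.33).
Ctsz was nearest to Ctsb (0.49), C1qa (0.46) and Ctss (0.46), and Lgmn to Ctsb, Psap (0.51) and Ctss (0.48). Ifi30 was nearest to H2-Ab1 (0.34), the I-A beta chain, then Psap (0.33) and Ctss (0.33).

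**Figure D5:**
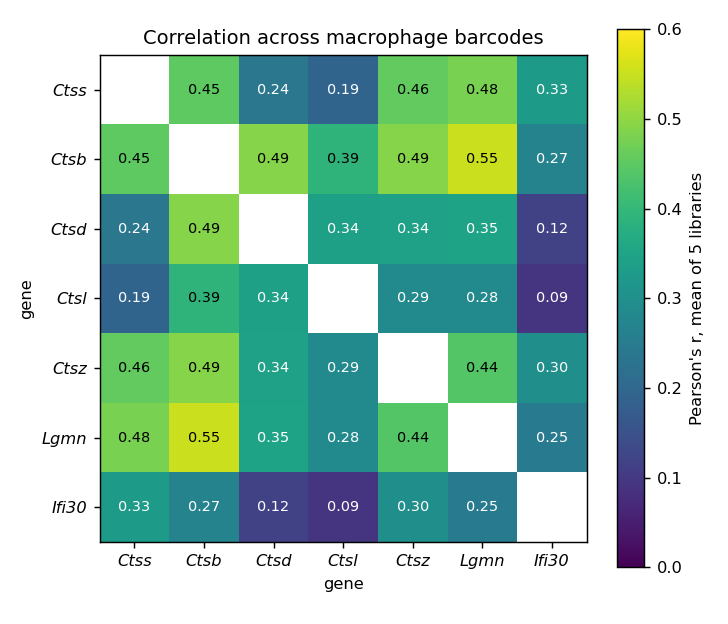
Pearson's r between each pair of genes across macrophage barcodes, averaged over the 5 libraries (color and number in each cell). The Ctsb and Lgmn cell is the highest at 0.55, and the Ifi30 cells with Ctsl (0.09) and Ctsd are the lowest.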

How the data were processed

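Raw UMI counts per gene and barcode were deposited by the authors for each of the 5 gene expression libraries, made with Cell Ranger (3.0 in the submitters' processing notes, 7.1.0 in the file headers) on mm10, with Seurat 4.0 named for later steps. No column of other samples was present. Each mouse pool is 1 library, so conditions were compared without a test, and intervals cover counting error only. Here barcodes with at least 500 genes and at most 10% mt- UMIs were kept, doublets were removed only as an alternative (Scrublet in scanpy 1.11.5), and class sums were scaled to UMIs per 1000000 (CPM). Summed macrophage UMIs ran from 5302518 to 18592030 in a library. Log2 ratios used a pseudocount of 10 CPM. A gene was tested with a mean of 50 CPM and 20 UMIs over both libraries and called at 1.5-fold. Ratios carry exact conditional 95% intervals, gates exact Poisson intervals, and classes were compared with an exact sign-flip permutation test over 5 libraries. TMM came from edgeR 4.0.16 in R 4.3.3, other steps from Python 3.11.15, numpy 2.4.6, scipy 1.17.1 and pandas 2.3.3, tested on simulated data. All 7 genes are named, and from each of 5 lists (76 genes) the 2 highest and 2 lowest log2 ratios of L-fuc over control in macrophages on each day, and any past 1.5-fold the same way on both days (0 found), with the 3 genes nearest to each member by correlation. The class II genes of tumor cells, Ctsk, the barcode holding it and the genes given for that barcode were chosen after their values were seen. The 7 genes and the lists were chosen with earlier results of these data known. A marker of the macrophage list and of the tumor cell list is not reported here and was left out of their sums. Promoter windows are RefSeq GRCm38.p6 entries, found for 6 of the 7 genes.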

Additional observations from a re-analysis of the deposited data

Results flagged for a closer look

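Ctsl in macrophages differed from control in opposite directions on the 2 days, with a log2 ratio of L-fuc over control of -0.82 at day 7 and 0.64 at day 21. The difference between the days was not tested, since each group is 1 library. At day 7 the highest barcode of either library held at most 1.93% of its Ctsl UMIs. At day 21 a single L-fuc barcode held 41.9% of them, and without the highest barcode of each library the log2 ratio was -0.07.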

How the results depend on the processing

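No paired analysis was possible because each group is 1 pooled library with no cell tied to a mouse. Of 238 counts of members under 17 alternatives, 195 stayed within 1.5 times the reported count. The count higher than in tumor cells did so under all 17. Some counts could not move. Leaving out C1q UMIs does not change macrophages, and requiring macrophages with Ptprc and without Sox10 changes no other class. Taking Sox10 barcodes out of leukocytes does not change tumor cells, and dropping the minimum level changes counts in tumor cells only. Shares over all genes were taken in the main setting and without Sox10 barcodes only. The 4 alternatives without the highest barcode, without Sox10 barcodes, without C1q UMIs and with C1q at 0.2% of UMIs were chosen after seeing the data, and the cause of a moved count was not tested. A fold of 2 left 4 of 7 higher in macrophages than in other leukocytes. In macrophages it left 0 for L-fuc at day 7, 0 at day 21, 1 at control day 7 against day 0 and 0 at day 21 against day 7. In other leukocytes it left 0, 1, 2 and 1 in the same order. With C1q at 5 the macrophage counts were 1, 0, 7 and 5, and TMM gave 1, 1, 7 and 5. Median of ratios gave 7 and 5 in the last pair, and barcodes without Sox10, with or without a Ptprc UMI required, gave 2 and 0. For L-fuc at day 21 in macrophages, the mean over barcodes and leaving out the highest barcode gave 0, and Ctsl then turned to -0.066 without that barcode. In other leukocytes at day 7, TMM, median of ratios and C1q at 0.2% gave 0. At day 21, C1q at 20, C1q at 0.2% and leaving out the highest barcode gave 1, while median of ratios and the mean over barcodes gave 3 (2 higher, 1 lower), with Ctsb at 0.12 by the mean over barcodes and 0.10 without C1q UMIs. Control day 7 against day 0 gave 5 by median of ratios and 1 by the mean over barcodes, and day 21 against day 7 gave 2 by that mean and 1 without Sox10. In tumor cells the mean over barcodes gave 1, 2, 1 and 1, and no minimum level gave 1 each time, against 0. Leaving out a replicate was not possible with 1 library in a group.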
